A study of Mus musculus with 6 samples.

Results

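The insulin-like growth factor (IGF) axis is followed here through 9 genes in mesenchymal and endothelial cells of the mouse kidney. The genes are the ligand Igf1, the receptors Igf1r and Igf2r, and the IGF-binding protein genes Igfbp2, Igfbp3, Igfbp4, Igfbp5, Igfbp6 and Igfbp7. They were taken by name, and all 9 were found among the 23998 gene symbols of each plate's count table. IGF1 acts through IGF1R, a receptor tyrosine kinase that signals through IRS proteins, PI3 kinase and AKT to drive growth and survival, while IGF2R carries IGF2 to the lysosome for degradation. The binding proteins are secreted, hold IGFs away from or near their receptors, and are released from them by proteases. In the kidney, IGF signalling is known for its part in growth of the glomerulus and tubule and in the response to injury.

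The cells came from enzyme-digested kidney, were sorted singly into wells, and were sequenced by Smart-seq2, which covers transcripts over their full length. The injury was unilateral ureteric obstruction (UUO), the blocking of 1 ureter, which leads to tubule damage and fibrosis of that kidney. Each of 6 plates mixed cells of 1 healthy mouse, 1 mouse at day 2 of UUO and 1 mouse at day 10 of UUO, with wells of both a mesenchyme and an endothelia sort gate. The plate layouts give every well a gate, a condition and a number from 1 to 4, read here as the mouse within a condition, so that each group below is 4 numbers, named 1 to 4 in order. Strain, sex, age and the surface markers of the gates are not given in the sources used here. Condition and gate fill the same plate columns in every plate, so a condition and its plate columns cannot be told apart.

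After a minimum of 1000 detected genes and 20000 reads, 2235 of the 2292 sorted wells remained, namely 364, 366 and 376 cells of the mesenchyme gate and 380, 368 and 381 cells of the endothelia gate in healthy, day 2 and day 10 kidneys. Reads of all cells of 1 gate, condition and number were added up, which gave 24 sums of 61 to 127 cells and 19382742 to 56326210 reads. Levels in single sums of a gate are CPM, the reads of a gene scaled to the same total of gene reads in every sum, with that total adjusted by TMM factors. CPM of marker lists, clusters, cell types and pooled cells are scaled by all gene reads, with no such factors. A list of 8 endothelial markers such as Pecam1 and Cdh5 summed to 13428 to 20205 CPM in the endothelia gate and 88.9 to 390.1 CPM in the mesenchyme gate. A list of 7 mesenchymal markers such as Pdgfrb and Notch3 summed to 235 to 670.0 CPM in the endothelia gate and 5191 to 8602 CPM in the mesenchyme gate. Podocyte RNA was present in both, with 6 markers summing to 822 to 8172 CPM in mesenchyme sums and 1406 to 4110 CPM in endothelia sums. In 12 wells set aside as controls, which held 71020 reads together, Igfbp7 had 21 reads, Igfbp3 6, Igfbp5 3, Igf1r 2, Igf1 1 and the other 4 genes none. The Igfbp7 reads were spread over 11 of the 12 wells.

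The 9 genes lie on 7 mouse chromosomes (GRCm38, the same assembly as mm10). Igfbp2 (chromosome 1, 72824503 to 72852474, plus strand) and Igfbp5 (72857932 to 72874884, minus strand) are neighbours whose ends stand 5457 bases apart. Igfbp3 (7206086 to 7213923, minus strand) and Igfbp4 (99041244 to 99054392, plus strand) share chromosome 11. Igfbp7 is on chromosome 5 (77349240 to 77408041, minus strand) and Igfbp6 on chromosome 15 (102144362 to 102149511, plus strand). Igf1 is on chromosome 10 (87858265 to 87937042), Igf1r on chromosome 7 (67952827 to 68233668), both on the plus strand, and Igf2r on chromosome 17 (12682406 to 12769664, minus strand). Igf1 overlaps the antisense gene Igf1os, Igf2r the antisense gene Airn, and Igfbp7 the gene Polr2b on the other strand, each touching exons. Since it is not stated whether counting used strand, reads of these partners cannot be told apart.

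The 250 bases before the start sites of Igfbp7, Igfbp3 and Igfbp5 are shown because most of the differences below concern these 3 genes. They are from RefSeq (GRCm38.p6), read 5′ to 3′ on each gene's strand, at chr5:77408046-77408295, chr11:7213924-7214173 and chr1:72874866-72875115. Capitals mark each match to GGGCGG or its reverse CCGCCC, to TATAAA or its reverse TTTATA, and to TATATA.
Igfbp7 promoter: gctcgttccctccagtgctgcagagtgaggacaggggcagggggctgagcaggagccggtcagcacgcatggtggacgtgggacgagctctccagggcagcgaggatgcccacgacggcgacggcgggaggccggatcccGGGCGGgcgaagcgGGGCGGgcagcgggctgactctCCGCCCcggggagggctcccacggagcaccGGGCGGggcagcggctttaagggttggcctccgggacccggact
Igfbp3 promoter: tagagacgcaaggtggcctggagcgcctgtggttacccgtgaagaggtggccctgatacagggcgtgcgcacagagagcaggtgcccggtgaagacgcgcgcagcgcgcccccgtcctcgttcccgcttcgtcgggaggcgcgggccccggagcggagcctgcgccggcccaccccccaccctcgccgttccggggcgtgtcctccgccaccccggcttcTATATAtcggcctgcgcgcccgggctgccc
Igfbp5 promoter: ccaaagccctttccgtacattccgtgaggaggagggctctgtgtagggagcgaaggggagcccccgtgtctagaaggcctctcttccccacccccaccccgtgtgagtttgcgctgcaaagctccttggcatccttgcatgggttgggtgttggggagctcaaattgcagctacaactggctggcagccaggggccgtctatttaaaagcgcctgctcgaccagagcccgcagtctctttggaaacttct
The Igfbp7 stretch held 4 matches to GGGCGG, a GC box, which occurs in 32.7% of 32851 mouse promoters of the same length. The Igfbp3 stretch held 1 TATATA, which occurs in 5.25% of them. No match to the 3 motifs lay in the Igfbp5 stretch, which says only that these letters are not in this window.

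In healthy kidneys the 2 gates differed in their levels of binding proteins. Igfbp7, a matrix-associated member of low IGF affinity, stood far above the others in the mesenchyme gate. In the endothelia gate Igfbp5, which binds matrix as well as IGFs, had the highest mean, but not the highest level in every number. Per kilobase of exon, which allows genes to be compared, healthy mesenchyme sums averaged 4048 ± 898 CPM of Igfbp7 and 128 ± 19.7 CPM of Igfbp5 (SD, n = 4). Next came Igfbp3 with 60.8 ± 104, Igfbp4 with 39.5 ± 25.6, Igfbp6 with 35.4 ± 22.3 and Igfbp2 with 15.5 ± 21.4 CPM per kilobase, whose ranges over the numbers overlapped. In healthy endothelia sums, Igfbp5 averaged 412 ± 125, Igfbp7 322 ± 220.1, Igfbp3 218 ± 158 and Igfbp4 80.1 ± 19.0 CPM per kilobase, and the first 3 overlapped. In numbers 3 and 4, Igfbp7 (516 and 509) stood above Igfbp5 (395 and 423). The receptor Igf1r lay at 7.26 ± 2.66 CPM per kilobase in mesenchyme sums and 6.20 ± 2.03 in endothelia sums, and Igf2r at 5.91 ± 1.82 and 4.52 ± 0.70. Igf1 lay at 5.39 ± 3.56 and 2.35 ± 3.78 CPM per kilobase, and overlapped with both receptors in each gate.

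The healthy gates were compared in a fit of all 24 sums with edgeR's quasi-likelihood test, with the number as a block and Benjamini-Hochberg adjustment over all genes. Of the 9 genes, 3 were higher in the mesenchyme gate and 2 lower, against 11.3% and 12.7% of all 16116 genes tested (23.9% in either direction). Igfbp7 had 4539, 4038, 6486 and 4513 CPM in mesenchyme sums, against 142, 176, 624 and 615 CPM in endothelia sums, a log2 difference of 3.82 ± 0.48 (SE, adjusted p = 6.08e-06). Igfbp6, a binding protein with a preference for IGF2, had 23.0, 25.6, 76.0 and 32.7 CPM in mesenchyme sums, against 0.0742, 0, 0.0475 and 0.201 CPM in endothelia sums (8.95 ± 1.30, adjusted p = 3.35e-05). The groups did not overlap for either gene. Igfbp6 had a read in 6 of 380 healthy endothelia cells, so the size of its difference rests on few reads. Igfbp2, a binding protein abundant in fetal tissue, had 69.4, 3.47, 8.15 and 9.27 CPM in mesenchyme sums and no read in any healthy endothelia sum. Against 3 counts over the 4 endothelia sums (0.0234 CPM), the 28.7 CPM of the pooled mesenchyme gate were at least 1227-fold higher (adjusted p = 0.000156). Number 1 held most of these reads, and without it the bound was 221-fold.

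Both genes lower in the mesenchyme gate were binding proteins that proteases of the pappalysin family can cut. Igfbp5 had 881, 603, 786 and 809.8 CPM in mesenchyme sums, against 3405, 1576, 2375 and 2542 CPM in endothelia sums, and did not overlap (-1.65 ± 0.30, adjusted p = 0.000312). Igfbp4 had 301, 125, 71.1 and 122 CPM in mesenchyme sums, against 232, 411, 323 and 292 CPM in endothelia sums, and overlapped through number 1 (-1.12 ± 0.39, adjusted p = 0.0431). The call on Igfbp4 was lost without number 2 (adjusted p = 0.234), number 3 (0.131) or number 4 (0.138). Igfbp3, the main IGF carrier of serum, did not pass: it had 79.6, 3.38, 3.05 and 675 CPM in mesenchyme sums, against 414, 142, 940.0 and 1229.9 CPM in endothelia sums (-3.21 ± 1.27, adjusted p = 0.0752). Number 4 stood far above the other mesenchyme sums. Without it the difference was -5.22 (adjusted p = 0.0141), and without the fibroblast-like cells described below -7.00 (adjusted p = 0.00135). Igf1, Igf1r and Igf2r did not pass, and their groups overlapped.

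To see which cells carried each gene, all cells were clustered on 2000 variable genes from which the 9 genes were left out, which gave 18 clusters. Clusters were named by marker genes and are called like a cell type, or by their leading genes. Because clusters come from the same cells, their levels are a description with no test. Values are CPM of the pooled cells of a cluster from the gate that held at least 70% of it, with the range over numbers with at least 3 cells.

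**Figure D1:**
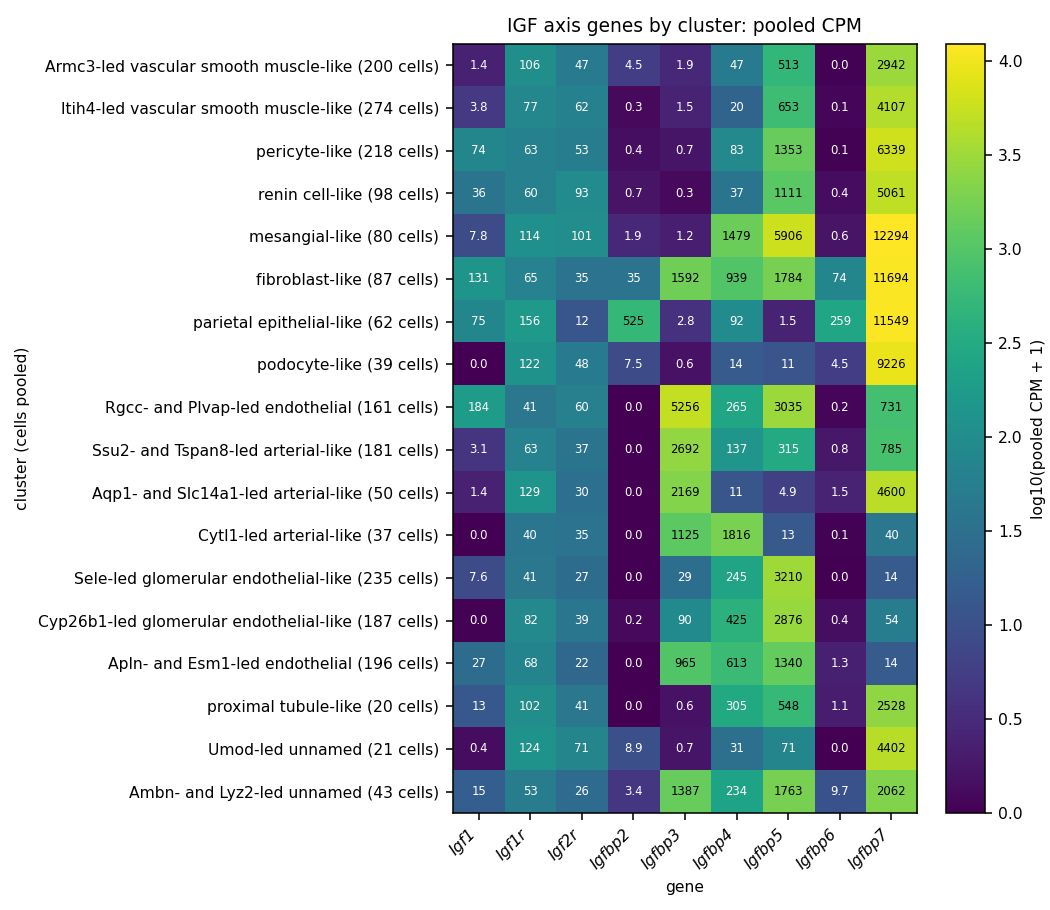
Pooled CPM of the 9 genes (columns) in the 18 clusters (rows, with the number of cells pooled), coloured by log10(CPM + 1) with the CPM printed in each field. Cells of all conditions are pooled. Igfbp7 fills the mesenchymal and epithelial rows, and Igfbp2 and Igfbp6 the parietal epithelial-like and fibroblast-like rows. Igfbp3 is high in the Rgcc- and Plvap-led, Ssu2- and Tspan8-led, Aqp1- and Slc14a1-led and fibroblast-like rows.

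Igfbp7 was highest in mesangial-like cells (12294 CPM, 8971 to 13545), fibroblast-like cells (11694, 10023 to 15127), parietal epithelial-like cells (11549, 9263 to 13526) and podocyte-like cells (9226, 8040.4 to 11229), whose ranges overlapped. Pericyte-like cells (6339, 5961 to 7195) and renin cell-like cells (5061, 4667 to 6993) came next and overlapped with each other but not with the first 4. Both clusters of vascular smooth muscle-like cells were lower, at 4107 CPM (3709 to 4516) in the Itih4-led and 2942 CPM (2805 to 3222) in the Armc3-led one. Every cell of these 8 clusters had an Igfbp7 read, but so did 11 of the 12 control wells, so a read alone says little about expression. Among endothelial clusters the range was widest: an arterial-like cluster led by Aqp1 and Slc14a1 had 4600 CPM (3895 to 4973), the Ssu2- and Tspan8-led arterial-like cluster 785 (284 to 1003), and the Sele-led glomerular endothelial-like cluster 14.1 (6.75 to 22.6).

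Igfbp5 was highest in mesangial-like cells (5906 CPM, 4138 to 8954). Next stood 3 endothelial clusters whose ranges overlapped with each other, and for the Rgcc- and Plvap-led cells with mesangial-like cells, namely the Sele-led glomerular cells (3210.1, 2931 to 3432), the Rgcc- and Plvap-led cells (3035, 2245 to 5305) and the Cyp26b1-led glomerular cells (2876, 1976 to 3338). It was near 0 in parietal epithelial-like cells (1.52, 0.499 to 2.48) and in the Aqp1- and Slc14a1-led arterial-like cells (4.91, 1.29 to 10.5), both of which were rich in Igfbp7.

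With all conditions pooled, Igfbp3 was higher in 3 endothelial clusters outside the glomerulus than in the glomerular ones. In the Ssu2- and Tspan8-led cluster, healthy cells lay far below UUO cells, as given by condition further below. Cells led by Rgcc and Plvap, a gene of fenestrated capillaries, had 5256 CPM (4129 to 8302), the Ssu2- and Tspan8-led arterial-like cells 2692 (543 to 3385) and the Aqp1- and Slc14a1-led cells 2169 (1676 to 3847). The glomerular endothelial-like clusters had 89.7 CPM (46.8 to 149) and 29.0 CPM (2.41 to 97.7), outside the ranges of all 3. In smooth muscle-like, pericyte-like, renin cell-like and mesangial-like cells it lay between 0.287 and 1.89 CPM, while fibroblast-like cells had 1592 CPM with a range from 0 to 3097. Igfbp4 was highest in the Cytl1-led arterial-like cells (1816, 1111 to 2193), mesangial-like cells (1479, 1148 to 1791) and fibroblast-like cells (939, 604 to 1330.4), which overlapped.

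Igfbp2 and Igfbp6 were found together in parietal epithelial-like cells, the lining of Bowman's capsule, at 525 CPM (323 to 933) and 259 CPM (218 to 324). Fibroblast-like cells followed with 34.8 CPM of Igfbp2 (4.25 to 161) and 73.8 CPM of Igfbp6 (36.3 to 108). No other cluster reached 10 CPM of either gene. This epithelial cluster held 62 cells of the mesenchyme gate, and without them the difference between gates in Igfbp6 was 4.29 and did not pass (adjusted p = 0.103). For Igfbp2 the difference without them was 9.25 (adjusted p = 0.0149).

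The ligand Igf1 was highest in the Rgcc- and Plvap-led endothelial cells (184 CPM, 43.4 to 279) and fibroblast-like cells (131, 76.8 to 329.5), followed by parietal epithelial-like (74.6, 0 to 109.5) and pericyte-like cells (73.8, 21.1 to 127.5), all of which overlapped. Podocyte-like and Cytl1-led cells had no Igf1 read. The receptors were spread more evenly. Igf1r lay between 39.6 CPM in the Cytl1-led cluster and 156 CPM in the parietal epithelial-like cluster, and Igf2r between 11.6 CPM in the parietal epithelial-like cluster and 101 CPM in mesangial-like cells.

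In the mesenchyme gate, UUO was compared with healthy kidneys at day 2 and day 10. At day 2, Igfbp6 and Igf1 were lower than in healthy kidneys in all 4 numbers. At day 10, Igfbp4, Igfbp5 and Igfbp7 were higher in all 4, and Igfbp6 was lower. How many of all genes moved the same way in all 4 numbers was not counted, so these directions are a description. None of the 9 genes passed an adjusted p of 0.05 in the edgeR fit of the gate's 12 sums, in which 0.459% of 14582 genes passed at day 2, 1.32% at day 10, and 0.048% between the days. At an unadjusted p under 0.05 stood 3 of the 9 at day 2, 3 at day 10 and 2 between the days, against 1473, 1997 and 1227 of all genes. The median change of the 9 was -0.18 at day 2 and 0.07 at day 10, beside 0.01 and 0.04 over all genes. In such sums, fewer cells of a type and less RNA per cell cannot be told apart. DESeq2's Wald test with the same terms called 3 of the 9 at day 2 (Igf1, Igfbp3 and Igfbp6), 2 at day 10 (Igfbp6 and Igfbp7) and 1 between the days (Igfbp2), where it called 3.99%, 8.24% and 2.64% of all genes to which it gave an adjusted p.

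**Figure D2:**
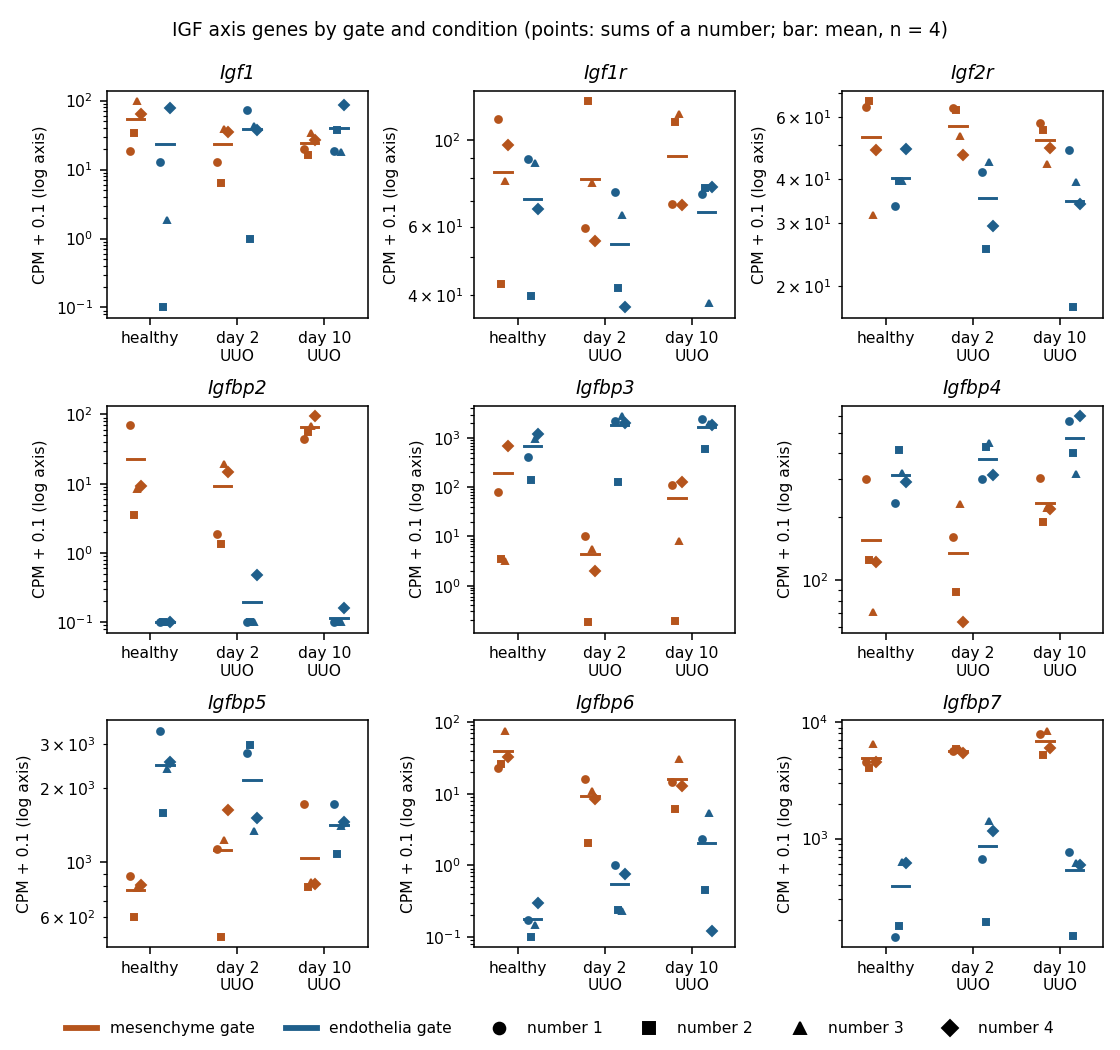
CPM + 0.1 (log axis) of each gene in every sum, by condition. Symbols mark numbers 1 to 4, orange the mesenchyme gate and blue the endothelia gate, and bars the mean of 4 sums. Mesenchyme sums of Igfbp7 lie above all endothelia sums, and Igfbp6 at day 2 lies below all healthy mesenchyme sums.

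Igfbp6 had 15.9, 1.97, 10.9 and 8.44 CPM at day 2 and 23.0, 25.6, 76.0 and 32.7 CPM in healthy kidneys, with no overlap (-2.21 ± 0.50, adjusted p = 0.123). At day 10 it had 14.4, 6.12, 30.3 and 12.6 CPM, which overlapped with healthy sums through number 3 (-1.44 ± 0.47, adjusted p = 0.189). Parietal epithelial-like cells, where Igfbp6 was highest, held 431 CPM in healthy, 150.0 in day 2 and 89.2 CPM in day 10 kidneys (26, 21 and 15 cells). Without them the change in the gate was -0.37 at day 2 (adjusted p = 0.968), and at day 10 its sign turned to 3.42 (adjusted p = 0.389). A list of 7 parietal epithelial markers summed to 453 to 906 CPM in healthy sums, 465 to 779.7 at day 2 and 376 to 669.8 at day 10. Of these, Cp also stood out in mesangial-like and fibroblast-like cells, and Pax8, Krt8 and Krt18 in the Umod-led cluster. The sum therefore does not follow parietal epithelial-like cells alone. Their leading gene Cldn1 averaged 77.1, 60.2 and 31.7 CPM in healthy, day 2 and day 10 sums, with overlapping ranges. Single values of the other markers are not given here.

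Igfbp2 did not follow Igfbp6. It had 69.4, 3.47, 8.15 and 9.27 CPM in healthy sums, 1.78, 1.25, 19.1 and 14.8 at day 2, and 43.6, 56.0, 68.2 and 95.3 at day 10. Day 10 sums were all above day 2 sums (3.28 ± 1.02, adjusted p = 0.371), while a single healthy sum, number 1, stood as high as day 10. In parietal epithelial-like cells it had 335 CPM in healthy kidneys, 144 at day 2 and 1562 at day 10, so that by pooled level Igfbp2 was highest on the day Igfbp6 was lowest. Those values rest on few cells and were not tested.

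Igf1 had 13, 6.20, 38.8 and 35.3 CPM at day 2, against 18.3, 33.7, 98.2 and 63.2 CPM in healthy sums (-1.26 ± 0.37, adjusted p = 0.257). The groups overlapped, but each number was lower at day 2. At day 10 it had 19.4, 16.1, 34.1 and 26.4 CPM, lower than healthy in 3 of 4 numbers (-0.95 ± 0.37, adjusted p = 0.275). Without the fibroblast-like cells the change in Igf1 was -1.95 at day 2 (adjusted p = 0.304) and -2.27 at day 10 (adjusted p = 0.175). Igfbp3 had 10.0, 0.0805, 5.34 and 1.85 CPM at day 2, against 79.6, 3.38, 3.05 and 675 CPM in healthy sums (-3.88 ± 1.42, adjusted p = 0.394). Of 11 healthy fibroblast-like cells, number 4 held 8. These cells had 8390 CPM of Igfbp3 in healthy kidneys, 37.9 at day 2 (14 cells) and 494 at day 10 (62 cells), and without them the change in the gate was -0.23 (adjusted p = 0.986).

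Igfbp7 had 7961, 5220.4, 8469 and 5968 CPM at day 10, against 4539, 4038, 6486 and 4513 CPM in healthy sums (0.50 ± 0.13, unadjusted p = 0.00354, adjusted p = 0.110). The groups overlapped through number 3 of healthy and numbers 2 and 4 of day 10, but every number was higher at day 10. Over the alternatives listed in the closing section, the change stayed between 0.39 and 0.68 and its adjusted p between 0.00541 and 0.377. The make-up of the gate moved with it: a list of 8 fibroblast markers summed to 910.5 to 5006 CPM at day 10, against 282 to 2311 CPM in healthy sums, and a list of 8 smooth muscle markers to 18353 to 26716 CPM, against 32790 to 35944 CPM. Without the fibroblast-like cells the change was 0.39 (adjusted p = 0.293).

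Igfbp4 had 305, 189, 219.6 and 218 CPM at day 10, against 160.4, 87.7, 229 and 63.4 CPM at day 2, higher in 3 of 4 numbers (0.86 ± 0.37, adjusted p = 0.569). For both receptors and Igfbp5 the conditions overlapped. Igf1r averaged 82.9 ± 30.3, 79.5 ± 32.4 and 91.1 ± 26.4 CPM and Igf2r 52.5 ± 16.2, 56.4 ± 8.07 and 51.4 ± 6.09 CPM in healthy, day 2 and day 10 mesenchyme sums (SD, n = 4 each). Igfbp5 averaged 770.0 ± 119, 1121 ± 467 and 1040.1 ± 451 CPM.

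**Figure D3:**
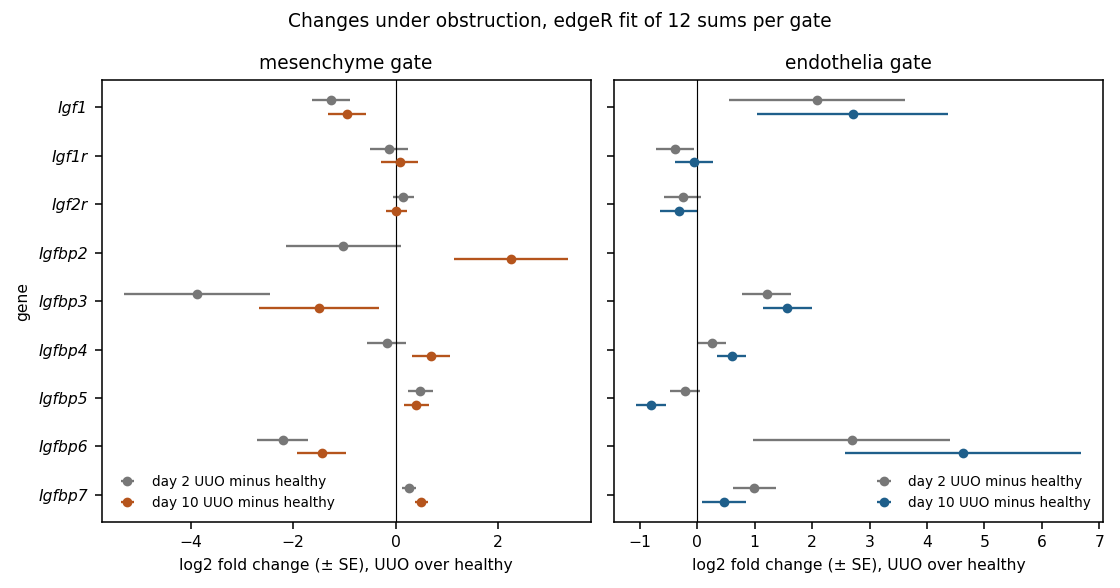
Log2 fold changes (± SE, edgeR) of the 9 genes at day 2 (grey) and day 10 (coloured) of UUO over healthy, in the mesenchyme gate (left) and the endothelia gate (right, without Igfbp2, which was not tested there). No point passes an adjusted p of 0.05, and Igf1, Igfbp3 and Igfbp6 lie below 0 in the left and above 0 in the right panel on both days.

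In the endothelia gate at day 10, Igf1 and Igfbp3 were higher and Igfbp5 lower than in healthy kidneys in 4 of 4 numbers. At day 2, Igfbp4, Igfbp6 and Igfbp7 were higher in 4 of 4. Such agreement of the numbers was not counted over all genes. None of the 8 genes tested passed, with 0.15% of 14026 genes passing at day 2, 0.649% at day 10 and 0.0143% between the days. Unadjusted p was under 0.05 for 2 of the 8 at day 2, 4 at day 10 and 1 between the days, against 1195, 1525 and 882 of all genes, and DESeq2 called 0, 1 (Igfbp5) and 0, against 3.42%, 5.35% and 2.1% of the genes with an adjusted p. Igfbp2 stayed outside the test, with 17 reads at day 2 and 3 reads at day 10, all in number 4, and none in healthy sums.

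Igfbp3 had 2211, 128, 2822 and 2057 CPM at day 2 and 414, 142, 940.0 and 1229.9 CPM in healthy sums (1.21 ± 0.42, adjusted p = 0.441). At day 10 it had 2479, 595, 1891 and 1822 CPM, higher than healthy in 4 of 4 numbers (1.57 ± 0.43, adjusted p = 0.160). Number 2 was lowest in every condition, and through it the groups overlapped. Igfbp5 had 1717, 1078, 1400.0 and 1453 CPM at day 10, against 3405, 1576, 2375 and 2542 CPM in healthy sums, lower in 4 of 4 numbers and overlapping through number 1 at day 10 and number 2 in healthy sums (-0.80 ± 0.26, adjusted p = 0.256). At day 2 its levels of 2776, 2967, 1333 and 1515 CPM lay on both sides.

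Igfbp7 had 673, 191, 1419.5 and 1154 CPM at day 2, against 142, 176, 624 and 615 CPM in healthy sums, higher in 4 of 4 numbers (1.00 ± 0.38, adjusted p = 0.481). By day 10 it had 771, 145, 621 and 595 CPM, higher in 1 of 4. Igfbp4 had 569, 401, 319 and 599 CPM at day 10, against 232, 411, 323 and 292 CPM in healthy sums, higher in 2 of 4 (0.60 ± 0.25, adjusted p = 0.406). A cluster led by Apln and Esm1, genes of sprouting endothelium, moved with this: it held 180 of 381 day 10 cells of the gate, 9 of 368 day 2 cells and 7 of 380 healthy cells, and had 613 CPM of Igfbp4. Of the glomerular endothelial markers, Ehd3, Smad6 and Fam43a also stood out in this cluster, and the others did not. Without the cluster the change in Igfbp4 was 0.06 (adjusted p = 0.989). Igfbp6 had 2.20, 0.356, 5.25 and 0.0201 CPM at day 10 and at most 0.201 CPM in healthy sums (4.63 ± 2.05, adjusted p = 0.447).

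Igf1 overlapped between all conditions in this gate, ranging from 0 to 78.8 CPM in healthy sums, 0.876 to 71.7 at day 2 and 17.9 to 85.7 at day 10. Each number was higher at day 10 than in healthy kidneys (2.71 ± 1.66, adjusted p = 0.632). Igf1r averaged 70.7 ± 23.1, 54.2 ± 17.6 and 65.4 ± 18.3 CPM and Igf2r 40.2 ± 6.19, 35.3 ± 9.37 and 34.7 ± 13 CPM in healthy, day 2 and day 10 sums.

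Whether the change differed between gates was tested as an interaction, mesenchyme change minus endothelia change, in the fit of all 24 sums. None of the 9 genes passed, with 0.0683% of genes passing at day 2 and 0.254% at day 10. At an unadjusted p under 0.05 stood 3 of the 9 at day 2 and 2 at day 10, against 1319 and 1801 of 16116 genes. Of the 3 at day 2, Igfbp2 had no read in healthy endothelia sums, so it has no endothelial change to set against the mesenchymal one. DESeq2 called 1 on each day, Igfbp6, against 2.19% and 3.68% of all genes. In healthy endothelia sums Igfbp6 was near 0, with a read in 6 of 380 cells, so the size of its endothelial change is uncertain. The smallest adjusted p was that of Igfbp6, with a difference of -4.80 ± 1.40 at day 2 (adjusted p = 0.346) and -5.63 ± 1.44 at day 10 (adjusted p = 0.126). Without the parietal epithelial-like cells it was -3.19 at day 2 (adjusted p = 0.742) and -1.26 at day 10 (adjusted p = 0.905). For Igfbp3 it was -5.59 ± 1.72 at day 2 (adjusted p = 0.369), and -1.95 without fibroblast-like cells. Igfbp5 differed by 1.17 ± 0.41 at day 10 (adjusted p = 0.256).

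Within cell types, Igfbp7 rose in vascular smooth muscle-like cells. Their summed reads gave 2629.8, 2451, 2737 and 2778 CPM in healthy kidneys, 3462, 3946, 4103 and 3751 CPM at day 2 and 5114, 3905, 5591 and 4669.9 CPM at day 10 (183, 157 and 134 cells). Neither day overlapped with healthy. The change was 0.53 ± 0.10 at day 2 (edgeR adjusted p = 0.0332) and 0.84 ± 0.10 at day 10 (adjusted p = 0.00259), and Igfbp7 was the single gene of the 7 tested that passed, against 1.13% and 0.956% of 11816 genes. At day 2 the call was lost without any 1 of the 4 numbers (adjusted p = 0.122, 0.0843, 0.158 and 0.202 without numbers 1 to 4) and without the block on the number (0.0889), while at day 10 it held without each (0.00768 to 0.0471).

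Different clusters held most of these cells, since 170 of 183 healthy cells were in the Armc3-led cluster and 138 of 157 day 2 and 123 of 134 day 10 cells in the Itih4-led one. In both the order was the same: Armc3-led cells of healthy, day 2 and day 10 kidneys had 2633, 4365 and 5007 CPM of Igfbp7, and Itih4-led cells 3038, 3727 and 4692 CPM. Mesangial markers summed to 983 to 1122, 675 to 934 and 754 to 1223 CPM in healthy, day 2 and day 10 sums of these cells, parietal epithelial markers to 144 to 216, 67.6 to 104 and 97.0 to 165 CPM, and podocyte markers to 593 to 691, 628 to 838 and 448 to 674 CPM. Fibroblast markers summed to 100.4 to 338, 109.6 to 232 and 183 to 377 CPM, with 2, 1 and 0 of the 8 at 0. The smooth muscle markers themselves were lower, at 48549 to 60506, 38314 to 42406 and 36679 to 41128 CPM. Their part in the result was not tested. Igfbp5 had 844, 576, 854 and 646 CPM at day 10, against 526, 505, 409 and 463 CPM in healthy smooth muscle-like cells, with no overlap (0.60 ± 0.19, adjusted p = 0.252).

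**Figure D4:**
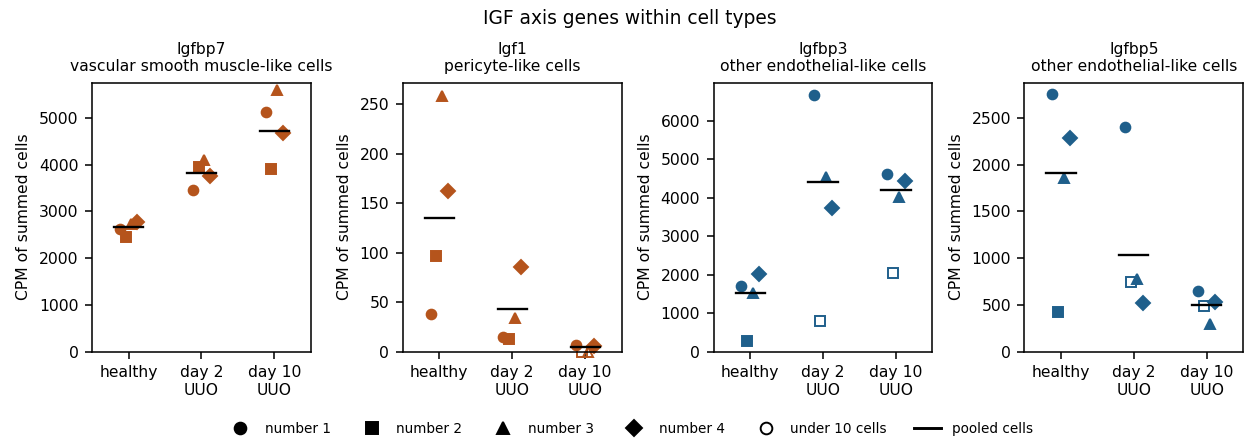
CPM of summed cells by condition for Igfbp7 in vascular smooth muscle-like cells, Igf1 in pericyte-like cells, and Igfbp3 and Igfbp5 in other endothelial-like cells. Symbols mark numbers 1 to 4, open symbols sums of under 10 cells and bars the pooled cells. Igfbp7 sums lie between 2451 and 2778 CPM in healthy and between 3905 and 5591 CPM in day 10 kidneys.

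Pericytes are contractile cells of capillaries. Of 8 pericyte markers, Rgs5, Cspg4 and Ephx3 stood out in the pericyte-like cluster, while Kcnj8, Abcc9 and Vtn did not. Casq2 and Higd1b did not by the same measure, though both were among its 10 leading genes. Rgs5 and Cspg4 also stood out in both smooth muscle-like clusters and in renin cell-like cells. The smooth muscle markers Myh11, Acta2, Tagln, Des, Myocd and Pln stood out in the pericyte-like cluster as well. In pericyte-like cells none of the 6 genes tested passed, with 0 of all 12257 genes passing on either day. At an unadjusted p under 0.05 stood 1 of the 6 at day 2 and 2 at day 10, against 419 and 502 of all genes. Igf1 had 38.2, 96.4, 259 and 162 CPM in healthy kidneys, 14.3, 12.8, 34.3 and 85.7 CPM at day 2 and 6.30, 0, 0 and 5.48 CPM at day 10 (89, 88 and 41 cells). Every number was lower at day 2 and lower again at day 10, and day 10 did not overlap with healthy. Of all 218 pericyte-like cells, 34 had an Igf1 read, so these levels rest on few cells. The fit, which left out the 2 day 10 sums of under 10 cells, gave -2.02 ± 0.69 at day 2 and -4.01 ± 1.07 at day 10 (adjusted p = 1.00 for both). Igfbp4 had 1.31 and 0.171 CPM in the 2 day 10 sums that entered, against 120.4, 163, 91.1 and 58.7 CPM in healthy sums (-7.19 ± 1.23, adjusted p = 0.566), but 80.5 and 79.2 CPM in the 2 smaller ones. Igfbp7 in these cells was at 5578, 6931 and 6695 CPM of pooled cells in the order healthy, day 2, day 10.

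The endothelial cells that were neither glomerular nor Apln-led, here called other endothelial-like cells, joined the Rgcc- and Plvap-led and the 3 arterial-like clusters. None of the 7 genes tested passed, with 0.00807% of 12387 genes passing at day 2 and 0.0161% at day 10, and 3 and 4 of the 7 at an unadjusted p under 0.05, against 681 and 933 of all genes. Igfbp3 had 1706, 281, 1508 and 2023 CPM in healthy kidneys, 6664, 782, 4542 and 3733 CPM at day 2 and 4624, 2052, 4016 and 4431 CPM at day 10. It was higher in each number on both days (1.46 ± 0.22, adjusted p = 0.254 at day 2, and 1.34 ± 0.21, adjusted p = 0.150 at day 10). Number 2 of day 2 and of day 10 held under 10 cells and was left out of the fit. Igfbp5 had 2752, 419.8, 1854 and 2281 CPM in healthy kidneys, 2402, 747, 777 and 523 CPM at day 2 and 649.6, 484, 295 and 527 CPM at day 10. All but number 2 were lower at day 10 (-2.26 ± 0.37, adjusted p = 0.150).

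**Figure D5:**
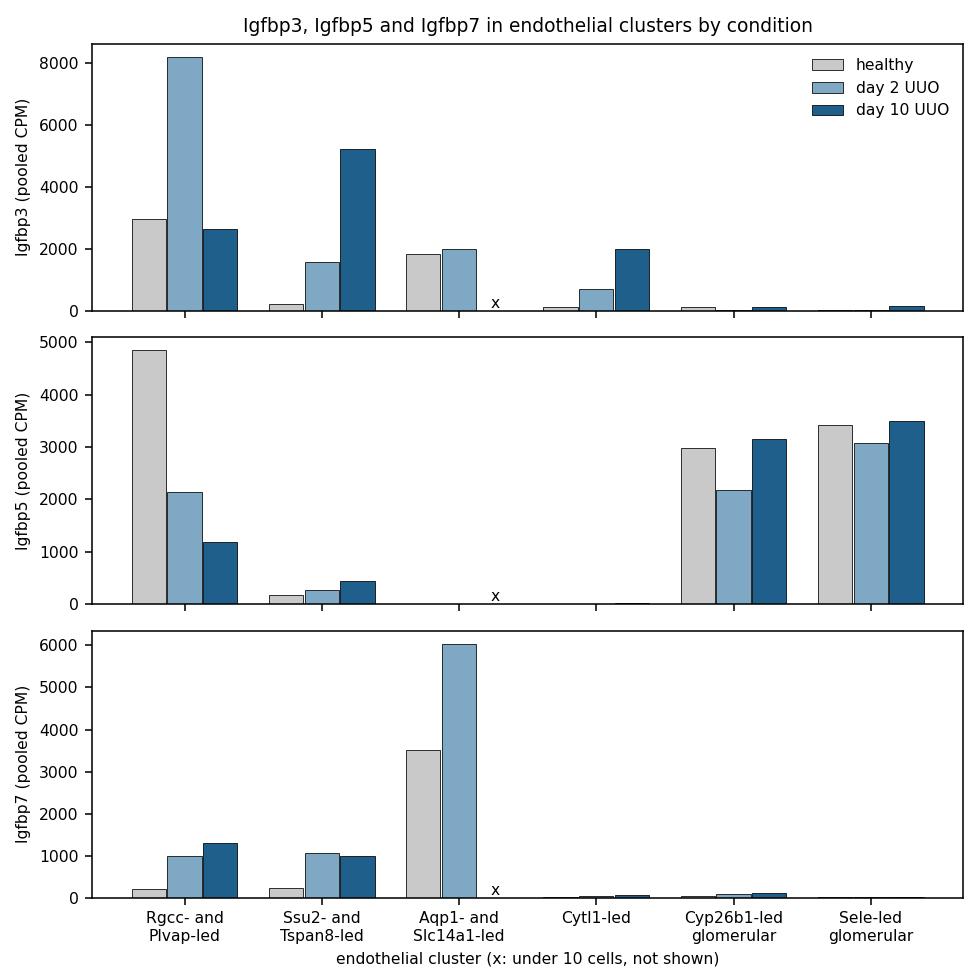
Pooled CPM of Igfbp3, Igfbp5 and Igfbp7 in 6 endothelial clusters, in healthy, day 2 and day 10 kidneys, where an x marks under 10 cells. Igfbp5 in Rgcc- and Plvap-led cells is at 4848 CPM in healthy, 2143 at day 2 and 1182 at day 10, while it lies between 2173 and 3498 CPM in the glomerular clusters.

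The clusters within this group did not move together. In Rgcc- and Plvap-led cells (62, 77 and 22 cells) Igfbp3 had 2967, 8196 and 2620.4 CPM and Igfbp5 4848, 2143 and 1182 CPM, in the order healthy, day 2, day 10. In the Ssu2- and Tspan8-led arterial-like cells (63, 53 and 65 cells) Igfbp3 had 220.4, 1561 and 5227 CPM and Igfbp5 182, 265 and 445 CPM. So the day 2 level of Igfbp3 was highest in the first and the day 10 level in the second, a difference that was not tested. Igfbp7 was lowest in healthy cells of both, with 209, 979 and 1291 CPM in the first and 228, 1058 and 981 CPM in the second. In other endothelial-like sums it had 516, 201, 1007 and 957 CPM in healthy kidneys, 989, 1057, 1735 and 1702 CPM at day 2 and 945, 838, 1280.5 and 1067 CPM at day 10 (0.82 ± 0.20, adjusted p = 0.491 at day 2, and 0.49 ± 0.20, adjusted p = 0.645 at day 10).

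Apln- and Esm1-led cells, 180 of them at day 10, shared some glomerular markers but were not counted as glomerular endothelial-like cells. Glomerular endothelial-like cells overlapped in Igfbp5 between conditions. They had 3431, 2479, 3069 and 2984 CPM in healthy kidneys, 3045, 2942, 2402 and 3034 CPM at day 2 and 3643, 1747, 3366 and 3905 CPM at day 10 (180, 180 and 62 cells). None of the 7 genes passed, with 0.0254% and 0.0339% of 11815 genes passing, and 1 and 0 at an unadjusted p under 0.05, against 569 and 940 of all genes. That 1 was Igfbp3, with 7.07, 0.0507, 15.6 and 19.8 CPM at day 2, against 28.8, 30.1, 169 and 133 CPM in healthy kidneys, lower in 4 of 4 numbers and with no overlap (-3.71 ± 1.09, adjusted p = 0.650). Different clusters held most of these cells, since 129 of 180 healthy cells were in the Cyp26b1-led cluster and 149 of 180 day 2 cells in the Sele-led one. Cyp26b1-led cells had 99.6, 24.3 and 111 CPM of Igfbp3 in healthy, day 2 and day 10 kidneys, and Sele-led cells 3.87, 6.67 and 143 CPM, so the lower day 2 level was seen in the first cluster and not in the second.

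Mesangial-like, renin cell-like, fibroblast-like, parietal epithelial-like and Apln-led cells had too few sums of at least 10 cells for a test. In renin cell-like cells Igfbp5 had 518, 923 and 1509 CPM and Igfbp7 3563, 5054 and 5585 CPM, again in the order healthy, day 2, day 10 (14, 40 and 44 cells). In mesangial-like cells Igfbp5 had 4045, 6955 and 6659 CPM and Igfbp4 2012, 1096 and 1298 CPM (24, 17 and 39 cells). Fibroblast-like cells had 1578, 7823 and 366 CPM of Igfbp5 and 213, 244 and 86.2 CPM of Igf1 (11, 14 and 62 cells). In the 14 day 2 cells the high Igfbp5 was found in each of the 3 numbers that held them, with 5118, 8305 and 10526 CPM in numbers 1, 3 and 4.

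Further genes of the pathway were read from a list of 42, from Igf2 and the insulin receptor Insr to IRS, PI3 kinase, AKT and FOXO genes and the proteases of the binding proteins, all of which were in the count tables. In the mesenchyme gate 36 were tested. At day 2, 1 fell and 35 did not pass, and at day 10, 2 fell and 34 did not pass, with none higher, against 0.13% and 0.658% of all genes lower. The median change of the list was -0.03 at day 2 and 0.13 at day 10, beside 0.01 and 0.04 over all genes. Grb14, an adaptor that binds and inhibits the insulin receptor, had 58.2, 100.4, 121 and 117 CPM at day 2 and 89.0, 117, 108 and 105 CPM at day 10, against 240.2, 210.3, 225 and 249 CPM in healthy sums. No day overlapped with healthy (-1.26 ± 0.19, adjusted p = 0.0188 at day 2, and -1.15 ± 0.19, adjusted p = 0.0152 at day 10). Its day 2 call was lost without any 1 number (adjusted p = 0.0982, 0.0664, 0.0793 and 0.174 without numbers 1 to 4), and its day 10 call without number 1 (0.0514), number 3 (0.10) or number 4 (0.136). Grb14 was also among the 10 leading genes of the Armc3-led smooth muscle-like cluster, which held mostly healthy cells.

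Crim1, a transmembrane protein with an IGF-binding protein motif, had 236, 362, 158 and 191 CPM at day 10, against 432, 438, 524 and 379 CPM in healthy sums, with no overlap (-0.95 ± 0.20, adjusted p = 0.0493). That call was lost without number 1 (adjusted p = 0.192), number 3 (0.222) or number 4 (0.242). In the endothelia gate 34 of the list were tested and none passed on either day or between the days, against 0.15%, 0.649% and 0.0143% of all genes. At an unadjusted p under 0.05 stood 2, 4 and 2 of the 34, against 1195, 1525 and 882 of 14026 genes. None of 40 passed as an interaction, with 3 at day 2 and 4 at day 10 at an unadjusted p under 0.05, against 1319 and 1801 of 16116 genes.

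Between the healthy gates, 10 of 40 were higher in mesenchyme and 6 lower, against 11.3% and 12.7% of all genes. The docking protein gene Irs2 had 82.2, 169, 81.0 and 114 CPM in mesenchyme sums, against 14.6, 12.1, 1.71 and 9.91 CPM in endothelia sums (3.58 ± 0.54, adjusted p = 5.08e-05). The PI3 kinase regulatory subunit genes Pik3r1 (1.45 ± 0.18, adjusted p = 5.17e-06) and Pik3r2 (2.63 ± 0.38, adjusted p = 3.09e-05) were higher as well. So were the kinase gene Akt2 (2.14 ± 0.39, adjusted p = 0.000380) and Crim1 (2.15 ± 0.36, adjusted p = 0.000157). Without the Apln-led cells the Akt2 difference was 2.11 and did not pass (adjusted p = 0.0689). Foxo1, a transcription factor that AKT keeps out of the nucleus, had 25.8, 22.2, 31.8 and 27.0 CPM in mesenchyme sums, against 203, 183, 239.9 and 191 CPM in endothelia sums (-2.94 ± 0.23, adjusted p = 2.06e-08). None of the groups overlapped for Irs2 or Foxo1.

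Across the 18 clusters, the genes whose log2(CPM + 1) went most closely with each member were found among 10244 genes of at least 10 CPM on average. Pearson's r is a description, since the clusters share plates and come from the same cells. As the highest of 10244 values over 18 clusters, the r of a nearest gene is high in part by selection. Igfbp6 (0.925) and Igfbp2 (0.863) had the same nearest gene, Scara5, a ferritin receptor, and Dkk3 was among the nearest 3 of both (0.868 and 0.838). The nearest to Igfbp7 was Ctgf, a matrix-associated protein of the CCN family (0.890), that to Igfbp5 Tbc1d2b (0.900), that to Igfbp3 the gap junction gene Gja1 (0.886) and that to Igfbp4 the retinoic acid receptor gene Rara (0.855). Igf1 went most closely with Scrib (0.771) and Abcc9 (0.770), a potassium channel subunit. For the evenly spread receptors the nearest genes were Cited2 for Igf1r (0.785) and Mmachc for Igf2r (0.793).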

How the data were processed

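The authors deposited raw read counts per gene and well for 6 plates, with 24490 entries per plate, of which 771 share a symbol and were added up. STAR and mm10 are named in the submitters' processing notes, while versions, the counter, the annotation, the use of strand and filters are not given in the sources used here. Spike-in counts were not used.

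Cells with at least 1000 genes and 20000 reads were kept, and no doublet caller was run. Cells were clustered with scanpy 1.11.5 (2000 variable genes without the 9 members, 30 principal components, 15 neighbours, Leiden resolution 1). Cluster names, the grouping of clusters into types, the separate place of the Apln-led cluster and the use of cells from the gate that held at least 70% of a cluster were chosen after the clusters were seen. The members and lists were chosen with earlier results of these data known.

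Counts were summed per gate, condition and number and tested with edgeR 4.0.16 (R 4.3.3; filterByExpr, TMM factors, quasi-likelihood F test, Benjamini-Hochberg adjustment over all genes, threshold 0.05) after a test on simulated data. Within types, sums of at least 10 cells entered, and a type was tested with at least 9 sums. The number was a block because all 3 conditions of a number share plates by the layout. Deviations of same-numbered sums correlated between -0.02 and 0.21, with 13 of 24 pairs over 0.1. Nothing in the labels says more on the origin of the numbers, so p-values measure the spread between them. CPM of gate sums are scaled by gene reads times TMM factors, other CPM by all gene reads, and standard errors are the log2 change divided by the root of F. DESeq2 1.42.0 was an alternative. The 9 members were always named, and other pathway genes were named where they passed, at most the 6 of smallest p in a comparison. Of the genes most like a member, the 3 nearest were taken and the leading ones printed. No interval is given for reads, which are not independent molecules.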

Additional observations from a re-analysis of the deposited data

Results flagged for a closer look

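In 53 groups of 4 sums, the highest or lowest sum was set against its nearest neighbour, and 7 groups had a sum whose gap to the nearest was past Dixon's 95% critical value. Chance gives about 1 in 20 only for normally distributed values, which was not checked for these CPM, so the count is a description. Igfbp3 had 675 CPM in number 4 of the healthy mesenchyme gate, and the nearest sum 79.6. Igfbp2 had 69.4 CPM in number 1 of the healthy mesenchyme gate, and the nearest sum 9.27. Igfbp5 had 1716 CPM in number 1 of the day 10 mesenchyme gate, and the nearest sum 832. In the endothelia gate, Igf1 had 78.8 CPM in number 4 of healthy kidneys beside 12.7 in the nearest sum, and Igf1r had 38.1 CPM in number 3 of day 10, below 72.8 in the nearest. Igfbp2 had 0.384 CPM at day 2 and 0.0602 CPM at day 10 in number 4 of the endothelia gate, and 0 in the other numbers. With a single sum above 0, these groups were bound to be flagged. In 1 further group, Igfbp2 in the healthy endothelia gate, all 4 sums were at 0.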

How the results depend on the processing

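Of 217 alternative values for the 16 changes that passed the threshold, all kept their direction and 34 lost the call. Of 396 for the 36 that did not pass, 394 kept their direction, 19 came to pass and 2 reversed, both Igfbp6 in the mesenchyme gate at day 10, with 3.48 in cells whose class fits the gate and 3.42 without the parietal epithelial-like cluster. DESeq2 called 3, 2 and 1 of the 9 genes in the mesenchyme gate (day 2, day 10, day 10 over day 2), 1 in the endothelia gate at day 10, and 1 on each day as an interaction, where edgeR called none. At day 10, 1 gene of the mesenchyme gate passed with sums per plate, with cells whose class fits the gate, with thinned cells and without the parietal epithelial-like cluster, and 1 gene of the endothelia gate with sums per plate and with no low-count filter. Since 6 plates hold 4 numbers, sums per plate count plates of the same number as separate replicates. Their calls therefore do not rest on independent replicates. Between the healthy gates, 3 genes instead of 5 passed in cells whose class fits the gate and without the parietal epithelial-like cluster. In smooth muscle-like cells at day 2, 0 passed with no replicate block, and 0 to 0 when a number was left out. Without the replicate block, 4 genes passed between the healthy gates, and the counts of members called in the gates under UUO stayed at 0. At resolution 0.5 (14 clusters), the highest cluster of Igfbp4 had 1184 CPM instead of 1816. The causes were not tested. Removing clusters, and leaving out numbers or the block within types, were chosen after seeing the data. Small clusters limit the values by condition.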
